A study of Oreochromis niloticus with 24 samples.

Results

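The difference between LH and FSH cells was compared between males and females of Nile tilapia, for the 1309 genes that are in both deposited tables of normalized reads, out of 2932 genes in the 2 tables together. The members were chosen by presence in both tables alone. A further 1083 genes are in the male table only and 540 in the female table only, and they were not compared. For each gene, the log2 difference of LH minus FSH cells in females was subtracted from that in males. This quantity, called the difference of differences here, is above 0 where LH relative to FSH expression was higher in males.

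The study sorted pituitary cells of mature, double transgenic tilapia (Oreochromis niloticus, Lake Manzala strain), in which red fluorescent protein (RFP) is driven by the LH promoter and green fluorescent protein (GFP) by the FSH promoter. In each sort a pool of pituitaries of 1 sex gave RFP-positive LH cells, GFP-positive FSH cells and negative cells, and 4 sorts were made per sex. The groups compared were LH and FSH cells of males and LH and FSH cells of females, with 4 libraries each, so that 16 of the 24 libraries were used. LH and FSH libraries with the same number were taken to share a pool and a sort, which the sample titles do not state. All 4 groups carried both transgenes, the fish were pooled, the cells were defined by promoter activity, and cells with both colours were not sequenced.

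LH, or luteinizing hormone, and FSH, or follicle-stimulating hormone, are dimers of a shared alpha subunit, encoded by cga, and a beta subunit of their own, encoded by lhb and fshb. In fish the 2 hormones are made largely by separate gonadotrophs, while in mammals most gonadotrophs make both. Gonadotropin-releasing hormone from the brain, sex steroids from the gonad and other peptides act on these cells through G protein-coupled and nuclear receptors, and the gonads that they drive differ between the sexes.

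Levels are given in normalized reads (NR): the authors divided each library's reads by its size factor, computed within each sex. NR of males and females are therefore on separate scales, and only differences within a sex were set against each other. The 16 libraries had 69755 to 1356474 reads on the 1309 genes, from 216644 to 1356474 in males and from 69755 to 470834 in females, and 3 reads stood for 1.22 to 7.21 NR. The sorted cells carried their defining markers: fshb in LH libraries was at 0.280% to 0.511% of its level in FSH libraries of the same sort in males and at 0.0781% to 0.154% in females, and lhb in FSH libraries was at 0.0924% to 0.703% of its LH level in males and at 0.783% to 1.24% in females. None of 7 genes of other pituitary hormones and none of 11 macrophage markers was among the 1309 genes, nor was any gene matching the blood cell or ribosomal protein patterns. The tables hold genes enriched in LH or FSH over negative cells, so the 1309 genes are a selected set and not all expressed genes. Absence of a marker from this set is therefore no measure of the purity of the sorted cells. In sorted bulk RNA, fewer cells that express a gene and less of its RNA per cell cannot be told apart.

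Of the 1309 genes, 4 differed between the sexes in their LH to FSH difference at a BH-adjusted p below 0.05 (limma). LH relative to FSH expression was higher in males for 3 genes (0.229% of those tested): sptbn4, gabbr1 and cckbrb. It was lower in males for 1 gene (0.0764%), col27a1b. At an unadjusted p below 0.05, 128 genes were higher and 35 lower, 12.5% of the genes tested. The same counts by edgeR's quasi-likelihood test on the recovered reads were 2 and 1 at the adjusted threshold, and 130 and 49 at the unadjusted one. These counts are on the authors' scaling. Once each library was scaled to the median of these genes, 43 genes were higher and 86 lower at an unadjusted limma p below 0.05. The direction of the excess at the unadjusted threshold thus depended on the scaling. That median is taken over genes selected for enrichment, most of them higher in FSH cells on the authors' scaling. It is therefore no neutral reference, and neither scaling settles the direction. DESeq2 on the same reads called 15 genes higher and 6 lower (1.60% of the genes tested). With the sort as a block, limma called 4 higher and 2 lower, adding fshb and gria4a. Hereafter, called means by limma without a block unless another test is named.

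Across the genes of this set, most of the LH to FSH difference was common to the sexes. Only genes enriched over negative cells in both sexes are in the set, a choice that favours such agreement. On the authors' scaling the differences had the same sign in 1263 of 1309 genes (96.5%). Of these genes, 205 were higher in LH cells of both sexes and 1058 higher in FSH cells of both, while 46 others were of opposite sign. The median gene was at -0.79 in males and -1.12 in females on that scale, which also favours a shared sign. Once each library was scaled to the median of these genes, the 1058 genes had medians of -0.18 in males and -0.23 in females. Agreement in sign was not counted on that scale. Across the genes, which are not independent and share libraries within each sex, Pearson's r between the male and female differences was 0.957 and Spearman's rho 0.882. The median difference of differences was 0.28 over all genes on the authors' scaling, and -0.046 once each library was scaled to the median of these genes. The values of the genes called are therefore also given relative to that median. Male sort 1 stood apart from the other male sorts in several genes, and without it the differences of differences were 2.31 for sptbn4 (limma BH-adjusted p = 0.00703), 3.26 for gabbr1 (0.0182) and -2.27 for col27a1b (0.0209), all still called. The counts at an unadjusted p below 0.05, on the authors' scaling, were then 73 higher and 38 lower, 71 and 20 without male sort 2, and 194 and 36 without male sort 4.

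**Figure D1:**
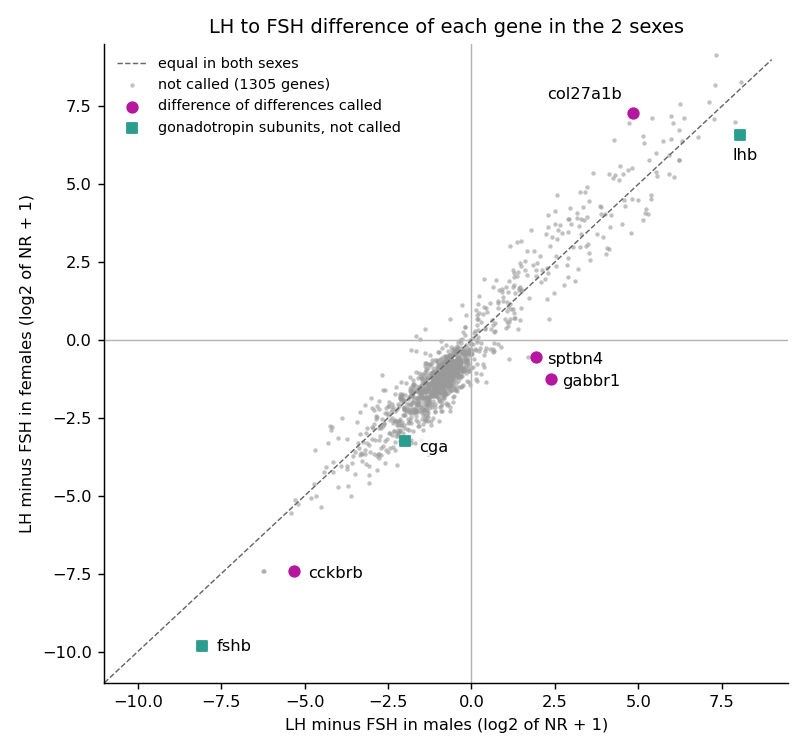
LH minus FSH difference in log2 (NR + 1) of 1309 genes in males (x axis) and females (y axis), each point 1 gene from the means of 4 libraries per group. The dashed line marks equal differences. sptbn4 and gabbr1 lie right of 0 and below 0, cckbrb and col27a1b lie off the line at the ends, and the 3 gonadotropin subunit genes, which did not pass the limma test without a block, are marked with squares.

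On the authors' scaling, the genes sptbn4 and gabbr1 had opposite signs in the 2 sexes. The median gene on that scale was at -0.79 in males and -1.12 in females. The female value of sptbn4, -0.54, lay above that median gene, and that of gabbr1, -1.24, lay near it. The female sign of sptbn4 therefore depends on the scaling. sptbn4 encodes a beta spectrin, known in mammals as part of the membrane skeleton that holds ion channels at the axon initial segment. It had 394, 285, 271 and 178 NR in male LH libraries, against 73.0, 90.2, 60.2 and 62.4 NR in male FSH libraries. Female LH libraries had 106, 179.7, 120.2 and 119 NR, against 246, 138, 219 and 167 NR in female FSH libraries. All male LH libraries were above all male FSH libraries, whereas the female LH and FSH libraries overlapped. The log2 LH minus FSH difference was 1.93 in males (limma BH-adjusted p = 2.20e-06) and -0.54 in females (adjusted p = 0.0544). The difference of differences was 2.47 (standard error 0.37, 95% interval 1.71 to 3.24, limma BH-adjusted p = 0.00151), and 2.20 relative to the median gene (adjusted p = 0.00398). Taken sort by sort, LH minus FSH was 2.42, 1.65, 2.15 and 1.50 in males and -1.21, 0.38, -0.86 and -0.49 in females, so that the sorts of the 2 sexes did not overlap. Across the 1309 genes, 8.17% had sorts of the 2 sexes apart in this way.

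gabbr1 encodes a subunit of the metabotropic GABA-B receptor, which binds GABA and works as a dimer with the product of gabbr2. It had 41.8, 30.9, 35.4 and 54.0 NR in male LH libraries, against 2.81, 5.71, 9.83 and 12.0 NR in male FSH libraries, the last group resting on 35 reads in all. Its female values were 124, 48.5, 36.4 and 86.6 NR in LH libraries, against 320.3, 124, 142 and 108 NR in FSH libraries. Male LH libraries were all above male FSH libraries, and in females the FSH library exceeded the LH library of the same sort in 4 of 4 sorts, although the groups overlapped. The difference was 2.39 in males (limma BH-adjusted p = 6.51e-05) and -1.24 in females (adjusted p = 0.0115). On the authors' scaling gabbr1 was thus the 1 gene called higher in LH cells of males and higher in FSH cells of females. After scaling to the median gene, 0 of the 46 genes of opposite sign, gabbr1 among them, were called higher in FSH cells of females. The difference of differences was 3.63 (standard error 0.61, 95% interval 2.37 to 4.89, limma BH-adjusted p = 0.00346), the largest of the 3 called higher in males, and 3.35 relative to the median gene (adjusted p = 0.00781).

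The other GABA-B genes in both tables, chosen for description after the values of gabbr1 were seen, had differences of differences close to 0. A second copy, gabbr1a (LOC100695498), averaged 370.2 ± 25.8 NR in male LH and 464 ± 28.9 NR in male FSH cells, and 191 ± 41.7 NR in female LH and 263 ± 31.1 NR in female FSH cells (SD, n = 4 each). Its difference was -0.33 in males and -0.47 in females, with a difference of differences of 0.15 (standard error 0.26, 95% interval -0.39 to 0.68, limma BH-adjusted p = 0.818). For gabbr2 the differences were -0.66 in males and -0.64 in females, and the difference of differences was -0.02 (standard error 0.46, 95% interval -0.98 to 0.94, limma BH-adjusted p = 0.977). How reads were shared between gabbr1 and gabbr1a was not tested, and the values of these near copies are uncertain to that extent.

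The FSH side was further apart in females at 1 called gene, cckbrb (LOC100700667, chromosome LG16:19849293-19880178 of O_niloticus_UMD_NMBU), annotated by the study as a cholecystokinin receptor. Cholecystokinin is a peptide of gut and brain best known for its part in satiety. The gene had 743, 500.0, 472 and 333 NR in male LH libraries, against 15358, 19074, 24910.1 and 21109 NR in male FSH libraries. In females it had 88.8, 66.9, 38.3 and 27.7 NR in LH libraries, against 9668, 10030.4, 6476 and 9130.3 NR in FSH libraries. FSH libraries were above LH libraries without overlap in both sexes. The LH minus FSH difference was -5.33 in males and -7.41 in females, and the difference of differences was 2.08 (standard error 0.43, 95% interval 1.18 to 2.97, limma BH-adjusted p = 0.0293). By sort, LH minus FSH was -4.37, -5.25, -5.72 and -5.98 in males and -6.75, -7.21, -7.37 and -8.31 in females, again without overlap.

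In LH libraries cckbrb was at 1.57% to 4.84% of its level in the FSH library of the same sort in males and at 0.304% to 0.919% in females. Both ranges lay above those of fshb in the same libraries, which were 0.280% to 0.511% in males and 0.0781% to 0.154% in females. The call of cckbrb was lost relative to the median gene (value 1.80, adjusted p = 0.108), under edgeR (2.00, adjusted p = 0.0669) and after a carry-over share set by fshb and lhb was subtracted (2.14, adjusted p = 0.0751), with values close to 2.08 under edgeR and carry-over subtraction. Without male sort 1 its value was 1.76 (adjusted p = 0.196), and over 35 alternatives the adjusted p was between 0.00177 and 0.196, with 14 calls.

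The LH side was further apart in females at 1 called gene, col27a1b (LOC100698351, chromosome LG12:29218387-29284678), which encodes the alpha chain of a fibrillar collagen of the extracellular matrix. It had 559.7, 886, 999.6 and 773 NR in male LH libraries, against 27.1, 31.8, 24.6 and 24.0 NR in male FSH libraries. In females it had 408, 917, 687 and 849.7 NR in LH libraries, against 2.11, 4.64, 2.40 and 5.43 NR in FSH libraries. The LH libraries of both sexes were above the FSH libraries without overlap, and by sort the difference was 4.32, 4.76, 5.29 and 4.95 in males and 7.04, 7.35, 7.66 and 7.05 in females. The female FSH values rest on 3, 4, 1 and 6 reads, 14 in all (exact Poisson 95% interval 7.65 to 23.5, counting error only). The difference was 4.83 in males and 7.27 in females, and the difference of differences was -2.44 (standard error 0.42, 95% interval -3.31 to -1.58, limma BH-adjusted p = 0.00346), or -2.72 relative to the median gene (adjusted p = 0.00236).

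In FSH libraries col27a1b was at 2.46% to 4.85% of its LH level in males and at 0.350% to 0.639% in females. Beside it, lhb in the same libraries was at 0.0924% to 0.703% in males, below col27a1b, and at 0.783% to 1.24% in females, above it. With a pseudocount of 5 the value of col27a1b was -1.69 and stayed past the threshold (adjusted p = 0.043). Its annotated span overlaps that of zgc:101858, and whether counting used strand is not given in the sources used here. The related col27a1 and col27a1a (LOC100694254) were chosen after the call was seen. Their LH minus FSH differences were -1.38 and -2.03 in males and -0.74 and -2.20 in females. For col27a1 the female difference did not pass (limma BH-adjusted p = 0.0675), and its LH and FSH libraries overlapped in both sexes. The differences of differences of the 2 genes were -0.63 (limma BH-adjusted p = 0.623) and 0.17 (adjusted p = 0.906).

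**Figure D2:**
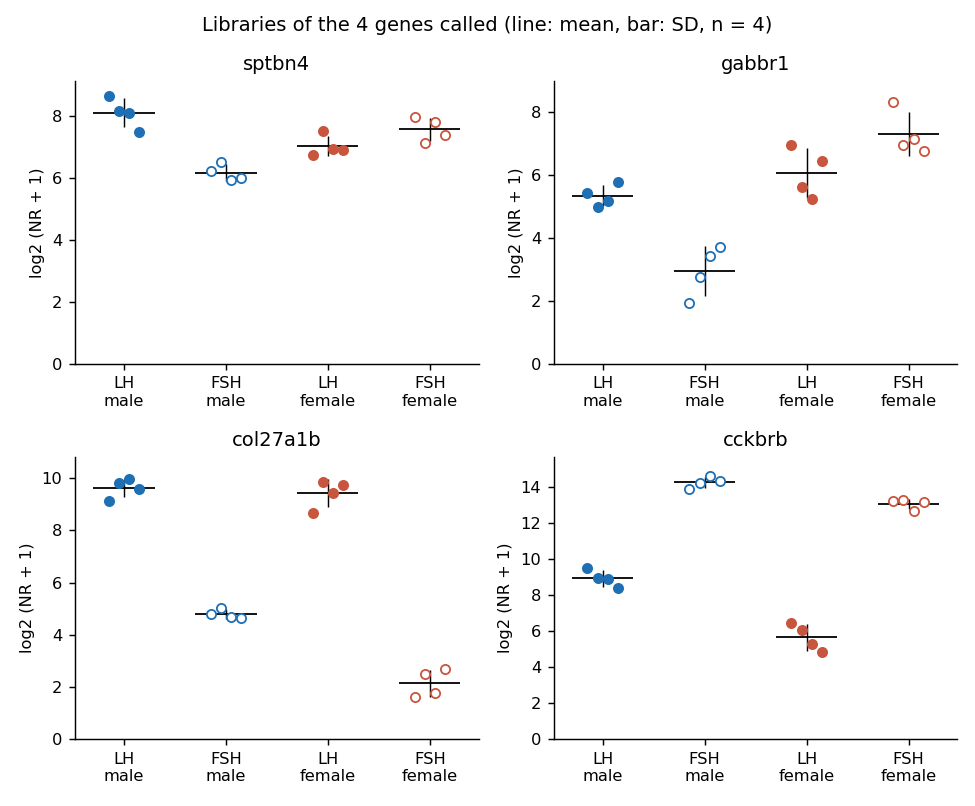
log2 (NR + 1) of each library (y axis) for the 4 genes called, in LH and FSH cells of males and then of females, with filled points for LH and open points for FSH libraries; lines are means and bars SD of 4 libraries. The male FSH libraries stand below the male LH libraries for sptbn4 and gabbr1 while female LH and FSH libraries overlap, and the gap between LH and FSH libraries is wider in females for col27a1b and cckbrb.

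None of the 3 gonadotropin subunit genes passed the threshold in limma without a block, and DESeq2 called fshb. lhb (LOC100534501, chromosome LG13:5233419-5236091) had 10131, 4353, 3970.5 and 4158 NR in male LH libraries, against 9.36, 30.6, 18.4 and 22.8 NR in male FSH libraries. Female values were 1678, 1123, 1035 and 1504 NR in LH libraries, against 13.3, 13.9, 12.0 and 11.8 NR in FSH libraries. Its LH minus FSH difference was 8.04 in males and 6.58 in females. The difference of differences was 1.47 (standard error 0.44, 95% interval 0.55 to 2.39, limma BH-adjusted p = 0.21). Male LH library 1 stood above the other male LH libraries, and without male sort 1 the value was 0.84 (adjusted p = 0.444).

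fshb (chromosome LG1:10247789-10250820) had 85.2, 114, 341 and 235 NR in male LH libraries, against 30489, 30774, 66628 and 66403 NR in male FSH libraries. Female LH libraries had 38.6, 23.6, 38.3 and 47.9 NR, against 35242, 30244, 24856 and 45449 NR in female FSH libraries. The LH minus FSH difference was -8.07 in males and -9.81 in females, and the sorts of the sexes were apart. Its difference of differences was 1.74 (standard error 0.52, 95% interval 0.65 to 2.83, limma BH-adjusted p = 0.21). Within sorts, with the sort as a block, the same value passed the threshold (limma BH-adjusted p = 0.0051), and DESeq2 without a block gave 1.86 (adjusted p = 0.0496), while edgeR gave 1.86 (adjusted p = 0.177).

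cga (chromosome LG19:13536066-13537615), the subunit made by both cell types, had 20688, 10254, 8955 and 7221 NR in male LH libraries, against 30519, 33035, 78399 and 44208 NR in male FSH libraries. In females it had 3484, 2411, 1806 and 2897 NR in LH libraries, against 24388, 21884, 15044 and 43236 NR in FSH libraries. FSH libraries were above LH libraries without overlap in both sexes, with differences of -2.00 in males and -3.24 in females. Its difference of differences was 1.24 (standard error 0.54, 95% interval 0.12 to 2.36, limma BH-adjusted p = 0.347). The LH minus FSH difference of lhb was larger in size in males and those of fshb and cga in females, by values that did not pass the limma test without a block.

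Of 33 genes listed as G protein-coupled receptors in the study and present in both tables, 2 were called, beside 0.306% of all genes. These were gabbr1 and cckbrb. For both, LH relative to FSH expression was higher in males, while the LH to FSH difference of cckbrb was larger in size in females. Within a sex, a call needed a log2 difference beyond 1 and a limma BH-adjusted p below 0.05. In males 11 of the 33 were called higher in LH and 13 in FSH cells, beside 12.9% and 39.3% of all genes, and in females 10 and 13, beside 12.8% and 56.8%. After scaling to the median gene the counts were 11 and 7 in males, beside 210 (16%) and 197 (15%) of all 1309 genes, and 11 and 9 in females, beside 222 (17.0%) and 213 (16.3%). The median difference of differences was 0.45 in this list and 0.28 over all genes. The study listed these receptors by enrichment in these same libraries, so the list gives no independent evidence of direction. The LH to FSH difference was larger in size in females for 20 of the 33, beside 74.9% of all genes, and for 23 after scaling to the median gene, beside 58.3%.

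Of 6 steroid and nuclear receptor genes, limma called none and DESeq2 called 2, esr2a and LOC100690064, beside 1.60% of all genes. LH relative to FSH expression was higher in males for both. esr2a (esr2 in the tables, chromosome LG15:16842604-16864547) encodes estrogen receptor beta, a ligand-activated transcription factor. It had 1118, 515, 342 and 205 NR in male LH libraries, against 346, 447, 439.8 and 365 NR in male FSH libraries. In females it had 71.3, 85.3, 94.7 and 88.3 NR in LH libraries, against 155, 189, 245 and 279 NR in FSH libraries. The male groups overlapped, whereas every female FSH library was above every female LH library. The LH minus FSH difference was 0.17 in males (limma BH-adjusted p = 0.637) and -1.31 in females (adjusted p = 0.00146), with a difference of differences of 1.49 (standard error 0.48, 95% interval 0.49 to 2.49, limma BH-adjusted p = 0.227). By sort it was 1.69, 0.21, -0.36 and -0.83 in males, and without male sort 1 the difference of differences was 0.98 (adjusted p = 0.451). DESeq2 gave 1.80 (adjusted p = 0.0496).

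The smallest p of that list was at LOC100690064, annotated by the study as the estrogen-related receptor ERR2, an orphan nuclear receptor. It averaged 38.3 ± 9.40 NR in male LH and 276 ± 43.2 NR in male FSH cells, and 9.35 ± 4.14 NR in female LH and 174 ± 28.6 NR in female FSH cells (SD, n = 4 each). The differences were -2.84 in males and -4.16 in females, and the difference of differences was 1.32 (standard error 0.41, 95% interval 0.47 to 2.17, limma BH-adjusted p = 0.216), and 1.49 in DESeq2 (adjusted p = 0.0396). The list's median difference of differences was 0.87, beside 0.28 over all genes.

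Of the 33 genes of voltage-gated, leak and related ion channels, limma called none between the sexes. DESeq2 called 1 of the 33, asic4, beside 1.60% of all genes. In males 4 were called higher in LH and 14 in FSH cells, near the 12.9% and 39.3% of all genes. In females the counts were 4 and 20, near the 12.8% and 56.8%. After scaling to the median gene the counts were 4 and 5 in males, beside 16% and 15% of all genes. In females they were 5 and 5, beside 17.0% and 16.3%. The differences were larger in size in females for 27 of the 33, beside 74.9% of all genes, but for 19 after that scaling, beside 58.3%. The member with the smallest p was asic4, of the acid-sensing channel family, with 262, 298, 328 and 427 NR in male LH and 7.49, 20.4, 8.60 and 12.0 NR in male FSH libraries, and 195, 319, 231 and 671 NR in female LH and 0.702, 0, 7.21 and 1.81 NR in female FSH libraries. The female FSH libraries held 6 reads of it in all. Its difference of differences was -2.25 (standard error 0.70, 95% interval -3.71 to -0.78, limma BH-adjusted p = 0.222), and -2.82 (adjusted p = 0.0316) without female FSH library 3. DESeq2 gave -3.03 (adjusted p = 0.0386).

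Of 8 transmitter-gated channel genes, limma without a block called none and DESeq2 called gria4a, beside 1.60% of all genes. gria4a (LOC100706002, chromosome LG14:17842428-17951406) encodes an AMPA-type glutamate receptor subunit. It had 219, 487, 568 and 492 NR in male LH libraries, against 82.4, 139, 138 and 127 NR in male FSH libraries. The female values were 315, 607, 377 and 624 NR in LH libraries, against 31.6, 63.9, 33.6 and 34.4 NR in FSH libraries. LH libraries were above FSH libraries without overlap in both sexes. The difference was 1.80 in males and 3.52 in females, and by sort it was 1.40, 1.81, 2.04 and 1.94 in males and 3.27, 3.23, 3.45 and 4.14 in females. The difference of differences was -1.73 (standard error 0.44, 95% interval -2.64 to -0.81, limma BH-adjusted p = 0.17), and with the sort as a block it passed the threshold (limma BH-adjusted p = 0.0051). DESeq2 without a block gave -1.69 (adjusted p = 0.0396), and edgeR -1.69 (adjusted p = 0.171). gjd2, a connexin of electrical synapses and the 1 gap junction gene in both tables, had differences of -0.33 in males and 0.02 in females and a difference of differences of -0.35 (standard error 0.45, 95% interval -1.28 to 0.59, limma BH-adjusted p = 0.763).

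Genes of the secretory granule and exocytosis numbered 56, none of them called between the sexes by limma or DESeq2. On the authors' scaling, 2 of the 56 were higher in LH and 21 in FSH cells in males, beside 12.9% and 39.3% of all genes. In females the counts were 3 and 32, beside 12.8% and 56.8%. On that scaling the FSH shares were thus near those of all genes and the LH shares below them. After scaling to the median gene the counts were 4 and 2 in males, beside 16% and 15% of all genes. In females they were 7 and 5, beside 17.0% and 16.3%. After this scaling the list's shares were below those of all genes in both directions and both sexes. The smallest p was at cplx1 (LOC100691349), a complexin that clamps and triggers vesicle fusion, which averaged 459 ± 304 NR in male LH and 531 ± 51.1 NR in male FSH cells, and 87.8 ± 10.8 NR in female LH and 277 ± 53.1 NR in female FSH cells. Its difference was -0.42 in males and -1.64 in females, with a difference of differences of 1.22 (standard error 0.42, 95% interval 0.34 to 2.09, limma BH-adjusted p = 0.276). Of 12 secreted hormones and peptides neither test called any, and apln, the precursor of the peptide apelin, had differences of 0.68 in males and -0.37 in females and a difference of differences of 1.05 (standard error 0.38, 95% interval 0.25 to 1.85, limma BH-adjusted p = 0.285).

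Of 29 genes of cyclic nucleotide and calcium signalling, 53 of neuronal adhesion and guidance, 14 transcription regulators of gonadotrophs and 20 of cilia, limma called none. DESeq2 called 1 of the regulators, rfx3, beside 1.60% of all genes. The median differences of differences of these lists were 0.23, 0.31, 0.56 and 0.31, beside 0.28 over all genes. The smallest p of the regulators was at rfx3, a winged-helix factor known for its part in ciliogenesis, with 528 ± 54.7 NR in male LH and 638 ± 33.7 NR in male FSH cells, and 173 ± 44.5 NR in female LH and 375 ± 34.4 NR in female FSH cells. Its difference of differences was 0.87 (standard error 0.27, 95% interval 0.31 to 1.43, limma BH-adjusted p = 0.216), and 0.85 in DESeq2 (adjusted p = 0.0472). For igsf11, an immunoglobulin-type adhesion molecule, it was -1.18 (standard error 0.42, 95% interval -2.07 to -0.30, limma BH-adjusted p = 0.285). For plch1 (LOC100703201), a phospholipase C, it was 0.90 (limma BH-adjusted p = 0.375), and for cfap61, a protein of motile cilia, 1.21 (adjusted p = 0.354).

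Among 28 matrix and growth factor genes, col27a1b was the 1 call of limma and of DESeq2, beside 0.306% and 1.60% of all genes. In males 9 were called higher in LH and 13 in FSH cells, beside 12.9% and 39.3% of all genes, and in females 10 and 14, beside 12.8% and 56.8%. After scaling to the median gene the counts were 10 and 10 in males, beside 16% and 15% of all genes. In females they were 10 and 8, beside 17.0% and 16.3%. After this scaling the list's shares were above those of all genes in both directions and both sexes. Of 5 stress and early response genes neither test called any, and egr2, an early response transcription factor, had a difference of differences of 0.98 (limma BH-adjusted p = 0.473). Of 19 vessel wall markers 2 were in both tables, and mcama (LOC102079346), an adhesion molecule of vessel walls, was higher in LH cells of both sexes, with differences of 2.60 in males and 3.53 in females and a difference of differences of -0.94 (limma BH-adjusted p = 0.473). The other, esamb, an adhesion molecule of endothelial junctions, was higher in FSH cells of both sexes, with differences of -2.05 in males and -1.92 in females and a difference of differences of -0.13 (adjusted p = 0.937). In the study's list of gonadotroph genes shared with rat, limma called 0 of 16 and DESeq2 called fshb and rfx3. In its list of genes of largest enrichment over negative cells, limma called 1 of 25, cckbrb, and DESeq2 also called fshb, esr2a and LOC100690064. Of all genes, limma called 0.306% and DESeq2 1.60%. These 2 lists, like the study's list of G protein-coupled receptors, were chosen by the study on these samples and give no independent evidence of direction.

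**Figure D3:**
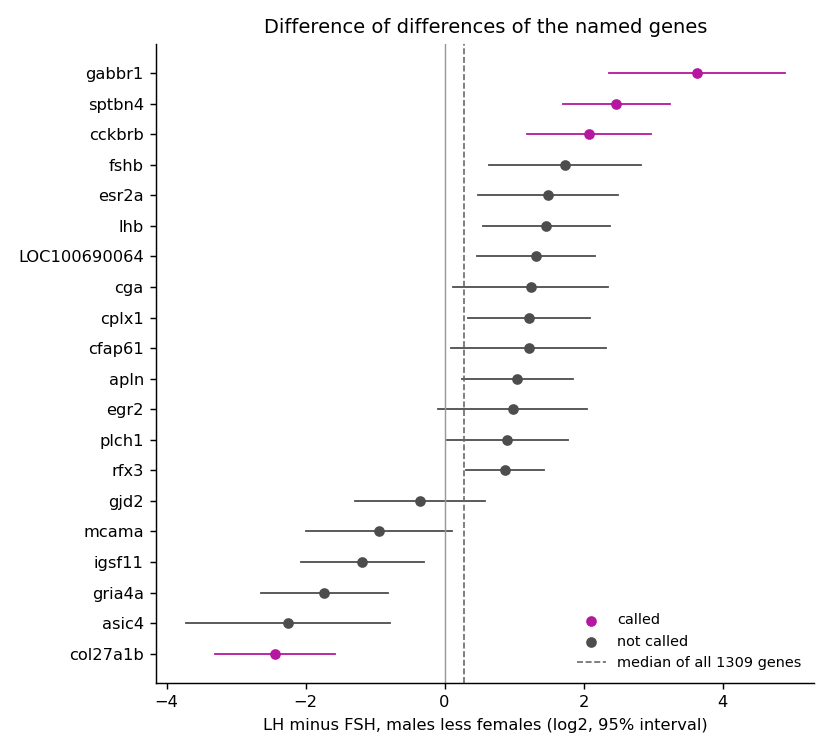
Difference of differences (x axis, log2, LH minus FSH in males less that in females) of the 20 named genes with 95% intervals from limma on 4 libraries per group. The dashed line is the median of all genes, 0.28. The 4 genes called, gabbr1, sptbn4, cckbrb and col27a1b, have intervals clear of both lines, as do intervals of some genes not called after adjustment over 1309 genes.

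**Figure D4:**
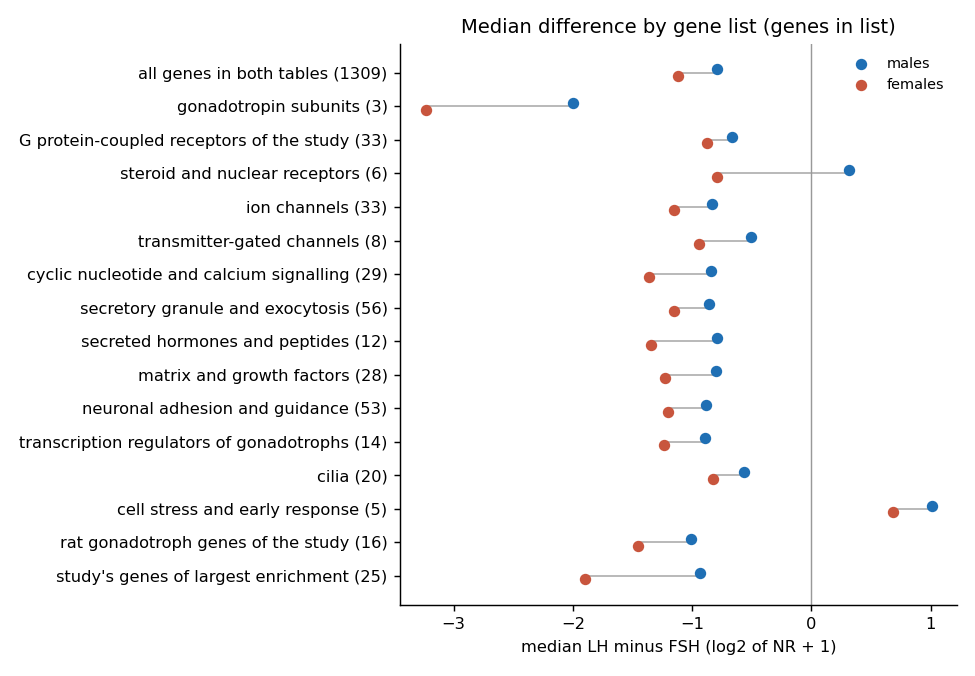
Median LH minus FSH difference (x axis, log2 of NR + 1) in males and females for all genes in both tables and for each gene list with at least 3 members, on the authors' scaling, with the number of genes in brackets. The female median lies below the male median in all 15 lists shown, as it does over all genes (-0.79 in males and -1.12 in females), and after scaling to the median gene it did in 11 of the 15.

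On the authors' scaling LH and FSH cells were further apart in females. The median absolute LH minus FSH difference over the 1309 genes was 1.06 in males and 1.39 in females, on the log2 scale. The root mean square difference, corrected for the sampling variance of the means, was 1.92 in males and 2.21 in females. Sort by sort, the median absolute difference was 0.760, 1.00, 1.22 and 1.29 in males and 1.34, 1.33, 1.52 and 1.47 in females, and the sexes did not overlap, although the highest male and lowest female sorts were close. The uncorrected root mean square was 1.73, 1.94, 2.21 and 2.25 in males and 2.18, 2.38, 2.27 and 2.38 in females, and here the sexes overlapped. Without male sort 1 the male values were 1.17 for the median absolute and 2.05 for the corrected root mean square difference.

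The median gene was itself lower in LH cells, with an LH minus FSH difference of -0.79 in males and -1.12 in females. Scaling each library to the median of these genes removed that offset by construction. The median absolute difference was then 0.53 in males and 0.59 in females, and by sort it was 0.584, 0.550, 0.604 and 0.666 in males and 0.621, 0.743, 0.679 and 0.748 in females, with overlap. The corrected root mean square was 1.85 in males and 2.09 in females on that scale. The set was selected for enrichment in LH or FSH over negative cells. On the authors' scaling 1058 of its genes were higher in FSH cells of both sexes and 205 in LH cells of both. The part of that selection in the offset was not tested. It cannot be told apart here from a larger share of RNA on other genes in LH cells or a lower level of most of these genes. Female libraries were also shallower on these genes. LH libraries had 69755 to 186162 reads in females and 216644 to 283496 in males. FSH libraries had 131526 to 470834 reads in females and 539344 to 1356474 in males. The highest male value was that of FSH library 2, and the next was 593531. The part of depth in the distance was not tested.

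Gene by gene, the difference was larger in size in females for 980 of 1309 genes (74.9%), for 883 without male sort 1 and for 763 (58.3%) after scaling to the median gene. Among the 1058 genes higher in FSH cells of both sexes it was larger in females for 827, against 591 after that scaling, and among the 205 genes higher in LH cells of both sexes for 130, against 157. Of the 46 genes of opposite sign it was larger in females for 23. Of the calls within a sex, only those for FSH cells were more numerous in females on the authors' scaling. In males 169 genes were called higher in LH and 514 in FSH cells, and in females 167 and 743. Called in both sexes were 151 LH and 487 FSH genes, 255 were called for FSH cells in females and in neither direction in males, and 27 the other way round. After scaling to the median gene the calls were 210 and 197 in males and 222 and 213 in females. None of the 4 genes called between the sexes by limma was among those 255, whose difference between the sexes did not pass that test. DESeq2 did call some of the 255 between the sexes, among them rfx3 and esr2a.

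**Figure D5:**
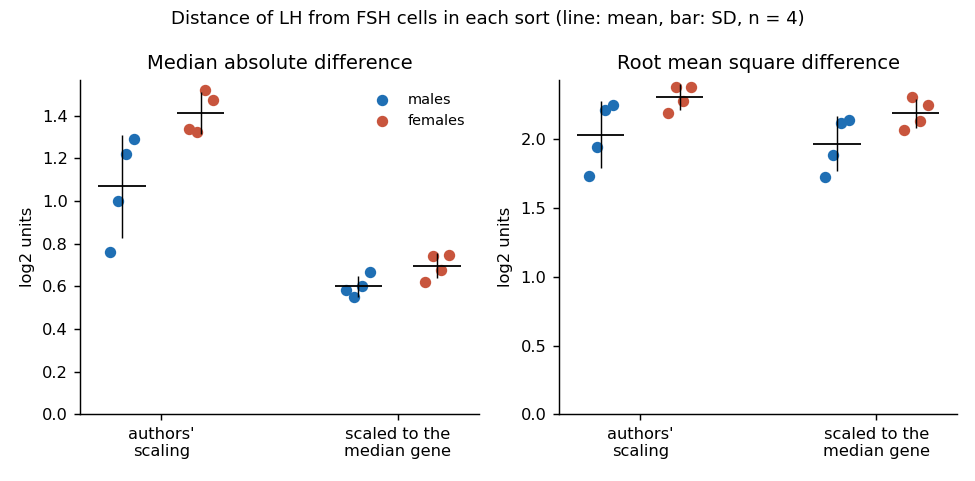
Distance of LH from FSH cells in each of 4 sorts per sex, as the median absolute (left) and root mean square (right) log2 difference over 1309 genes, on the authors' scaling and after scaling each library to the median gene; lines are means and bars SD. On the authors' scaling the male sorts lie at 0.760 to 1.29 and the female sorts at 1.33 to 1.52 in the left panel, and they overlap in the others.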

How the data were processed

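RNA was sequenced from FACS-sorted pituitary cells of male and female tilapia. Per the study's methods and the submitters' processing notes, reads were checked with FastQC 0.11.4, trimmed with Trim Galore, mapped with STAR to O_niloticus_UMD_NMBU and assigned to known genes where uniquely mapped. For each sex the authors deposited 1 table of signal values, namely normalized reads (NR), which are reads over the library's DESeq2 size factor. The authors' log2 fold changes and corrected p-values against negative cells were deposited beside them and were not used. In the male table each gene name stands 1 row below its values. Names were moved back by 1 row, after which male and female differences had an r of 0.957 across genes, against 0.123 as deposited. Of 1309 names, 751 were matched to RefSeq by gene number, 345 by symbol and 5 by synonym.

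log2(NR + 1) of the 16 LH and FSH libraries entered 1 fit of limma 3.58.1 (R 4.3.3) with a mean for each group and a mean-variance trend (20.9 degrees of freedom in all). The contrast (male LH minus male FSH) minus (female LH minus female FSH) was two-sided, with Benjamini-Hochberg (BH) adjustment over 1309 genes and a call at an adjusted p below 0.05. Fold changes on this scale understate changes of low genes. Whole reads were recovered for 100% of values in each library (tolerance 0.01 reads) and tested with edgeR 4.0.16 and DESeq2 1.42.0 as alternatives. The LH and FSH cells of a sort come from 1 pool by design, and libraries of the same number were taken as 1 sort. Deviations of such LH and FSH libraries from the group means correlated at 0.17, 0.31, 0.15 and 0.50 in males and 0.21, -0.03, 0.20 and 0.05 in females. Each number is a separate sort of a new pool, so the libraries of a group come from different pools. The main fit took the LH and FSH libraries of a sort as independent. Its p-values rest on the spread between libraries within groups, and only the block alternative used differences within sorts. The carry-over alternative subtracted from each LH library the share of the FSH library of its sort set by fshb, and from each FSH library the share set by lhb.

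Named were the 3 subunit genes, esr2 and cckbrb, called genes by class, and of each gene list the called members or else the member with the smallest p. The list patterns were set on symbols, since the reference table gave no gene descriptions. Genes, lists and tests were chosen with earlier results of these data known. Intervals cover 95%. The script was checked on simulated data. No sequence is printed.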

Additional observations from a re-analysis of the deposited data

Results flagged for a closer look

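The difference between LH and FSH cells differed between males and females, by the limma interaction test, at 4 named genes. The difference of differences was 2.47 for sptbn4, 3.63 for gabbr1, 2.08 for cckbrb and -2.44 for col27a1b.

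Some libraries stood far from the other 3 of their group, with a gap to the nearest one that took more of the group's log2 range than Dixon's 95% limit allows. For gria4a this was male LH library 1 with 219 NR, male FSH library 1 with 82.4 NR and female FSH library 2 with 63.9 NR. For lhb it was male LH library 1 with 10131 NR, for mcama male FSH library 1 with 17.8 NR, and for gjd2 female LH library 2 with 609.9 NR. Of these 6 libraries' values, 4 came from male sort 1. Chance flags about 1 in 20 groups, and 84 groups of 4 were looked at.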

How the results depend on the processing

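sptbn4, gabbr1 and col27a1b kept their direction and passed the threshold in all 35 alternatives run for single genes, with values of 2.15 to 2.78, 3.08 to 3.94 and -4.37 to -1.69. The -4.37 of col27a1b came from carry-over subtraction, which by construction set its female FSH values to 0. Its share there was below that of lhb in every female sort, so this alternative is no check of its call. cckbrb passed in 14 of 35, with values of 1.66 to 2.35. DESeq2 called 15 genes higher in males and 6 lower, and the sort as a replicate block 4 and 2. The pairing changed no other call of a named gene than those of fshb and gria4a. Scaling to the median gene gave 197 FSH calls in males and 213 in females, median absolute differences of 0.525 and 0.587, a corrected root mean square of 2.09 in females and a median difference of differences of -0.046. edgeR with TMM gave 202 and 216 FSH calls and a median of -0.040. With no limit on the log2 difference, 787 FSH genes were called in males. A pseudocount of 5 gave a corrected root mean square of 1.64 in males and 1.82 in females and a female median absolute difference of 1.27, and a pseudocount of 0.5 gave 2.33 in females. Carry-over subtraction gave 2.31 in females, turned fshb to -0.45 and called lhb at 1.99, both by construction, since it sets their level in the other cell type to 0.

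Leaving out 1 library or 1 sort gave 2 to 7 genes higher in males and 1 to 2 lower, with 7 without male sort 4 and 5 without male FSH library 4. Lower calls numbered 2 without female sort 1 and without female FSH library 3. LH and FSH calls ranged from 158 to 170 and 457 to 580 in males and from 161 to 168 and 680 to 781 in females. Genes further apart in females ranged from 883 to 1036. Reads on low groups limit the depth: at 14 reads of col27a1b in female FSH cells, the size of the difference is imprecise.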

Other observations

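DESeq2 on the recovered reads called 21 genes between the sexes, 15 higher and 6 lower in males, including the 4 called by limma. The other 17, of which some are named here after their values were seen, had limma BH-adjusted p of 0.102 to 0.285. Of the 21 genes, 11 were higher in FSH cells and 6 higher in LH cells of both sexes, and all of these had the larger difference in females. Beside them, the difference was larger in females for 78.2% of all genes higher in FSH cells of both sexes. For those higher in LH cells of both the share was 63.4%. DESeq2 was run on the authors' size factors and not after scaling to the median gene. The remaining 4 of the 21 had opposite signs in the sexes on the authors' scaling, namely sptbn4, gabbr1, esr2a and frem2a.

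On the FSH side, osbpl10, an oxysterol-binding protein, had 372 NR in male LH and 774 NR in male FSH cells, and 96.0 NR in female LH and 459 NR in female FSH cells, with a limma value of 1.18 and a DESeq2 value of 1.20 (adjusted p = 0.0386). fmn2, a formin that nucleates actin filaments, had LH minus FSH differences of -1.33 in males and -2.31 in females.

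On the LH side, cita, a citron kinase gene, averaged 560.2 NR in male LH and 458 NR in male FSH cells, and 602 NR in female LH and 161 NR in female FSH cells. Its difference was 0.38 in males and 1.96 in females. gfral, known in mammals as the receptor of the peptide GDF15, had 77.3 NR in male LH and 33.0 NR in male FSH cells, and 69.3 NR in female LH and 7.40 NR in female FSH cells, with differences of 1.37 and 3.16. Of the genes with opposite signs in the sexes, frem2a, an extracellular matrix protein gene of basement membranes, had 229.7 NR in male LH and 74.6 NR in male FSH cells. In females frem2a had 43.3 NR in LH and 66.9 NR in FSH cells. Its difference was 1.68 in males and -0.54 in females, and DESeq2 gave 2.26 for the difference of differences (adjusted p = 0.0472). Taken sort by sort, the LH minus FSH differences of the sexes overlapped for gfral and frem2a. No test of the genes named in this section outside these libraries was made.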
